A study of Drosophila melanogaster with 3 samples.

Results

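The genes described here encode the translation initiation factors of Drosophila melanogaster, and the question was which of their promoters carried a peak of the transcription factor Xbp1 in embryos. Members were chosen by name: the 43 protein-coding genes of the dm6 annotation whose symbol starts with eIF and a digit, of 13945 protein-coding genes on the chromosome arms, with eIF2alpha left out by the rule. Whole embryos of both sexes, collected between 0 and 24 h of age, came from 1 transgenic line, Xbp1-GFP, in which Xbp1 is stably expressed with GFP at its C terminus. Sonication gave chromatin fragments of 200 to 800 bp, from which an anti-GFP antibody pulled down the tagged protein. All 3 samples were biological replicates of this 1 group, so no genotypes, treatments or ages could be compared, and signal from one cell type cannot be told apart from signal from another in whole embryos. The signal reports the tagged protein expressed from an added transgene. Whole-embryo identity could not be checked from peaks. At the tagged gene, the promoter peak of Xbp1 ranked 2, 1 and 2 by signal in replicates 1, 2 and 3. Because the line carries an added Xbp1 transgene and the control was not analysed, these ranks alone cannot show binding there. A promoter peak is a peak whose summit lay no more than 500 bp from any start site of the gene in the annotation. A gene is called bound if it has one among the 7291 peaks that the authors kept by the irreproducible discovery rate (IDR), a measure of agreement between replicates. A peak counts for every gene whose start site it is near. Read totals are unknown, and the control sample was not analysed here.

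Initiation factors bring the small ribosomal subunit, the initiator tRNA and an mRNA together and then allow the large subunit to join. Factors 1 and 1A keep the scanning ribosome open until a start codon is found, factor 2 delivers the initiator tRNA and is recharged by its exchange factor eIF2B, and factor 3 is a large scaffold on the small subunit. The factor 4 group reads the mRNA cap and unwinds the leader, and factor 5 triggers GTP hydrolysis by factor 2. Factor 5B is the GTPase of subunit joining, and factor 6 acts in the making of the large subunit. Drosophila also carries duplicated copies of several of these genes that are known mainly from the testis. Xbp1 acts in the unfolded protein response. Another branch of that response, through the kinase PEK, slows initiation by phosphorylating the alpha subunit of factor 2.

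Initiation factor genes were bound more often than the background of protein-coding genes, and nearly all of the bound ones were general factors. Of the 43 members 20 were bound (46.5%, exact 95% Clopper-Pearson interval 31.2 to 62.3%), against 4242 of 13945 protein-coding genes (30.4%). Taking from each replicate list as many of its strongest peaks (7291), 21 members had a promoter peak in replicate 1 (48.8%, with 29.6% of all genes), 23 in replicate 2 (53.5%, with 32.8%) and 17 in replicate 3 (39.5%, with 28.0%), a mean of 47.3% ± 7.12 (SD, n = 3). The share lay above that of all genes in each replicate, least so in replicate 3. The intervals cover counting error over genes only, and since the members were chosen with earlier results known, no test was made over them. Other parts of the translation machinery had higher shares, with 15 of 22 other translation factors (68.2%), 14 of 20 aminoacyl-tRNA synthetases (70.0%), which charge tRNAs, and 72 of 88 ribosomal protein genes (81.8%). These differences were not tested.

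**Figure D1:**
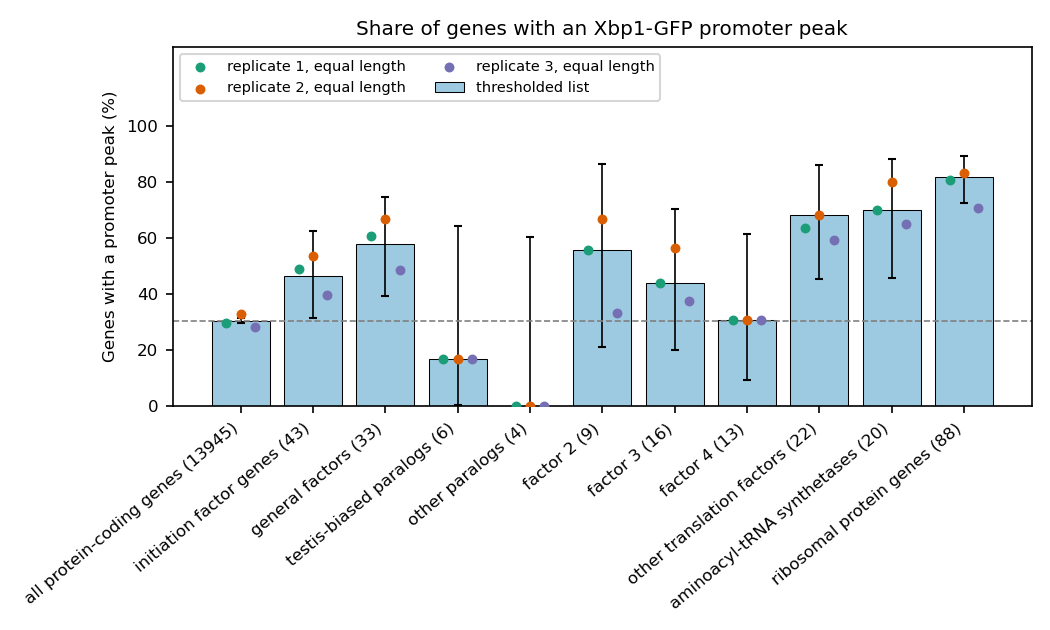
Percentage of genes with an Xbp1-GFP promoter peak, by gene group (number of genes in brackets); bars give the thresholded list with exact 95% intervals, points the 7291 strongest peaks of each replicate, and the dashed line all protein-coding genes (30.4%). General factors stand at 57.6% and testis-biased paralogs at 16.7%, with wide intervals for the small groups.

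A larger share of the general factors than of the paralogs was bound. Of 33 general factors, here every member not listed as a paralog, 19 were bound (57.6%, exact interval 39.2 to 74.5%), and in the replicate lists 20, 22 and 16 were. Of 6 paralogs classed from background knowledge as testis-biased, 1 was bound (16.7%, exact interval 0.421 to 64.1%), the same count in each replicate list. None of the other 4 paralogs, eIF4E4, eIF4E6, eIF4E7 and eIF4H2, was bound in the thresholded list or in any replicate list of that length (exact upper limit 60.2%). Expression was not measured, and with groups this small the intervals of the general and the testis-biased class overlap.

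The testis-biased paralogs had not even weak entries at their promoters, with 1 exception. For eIF3d2, eIF3f2, eIF3g2, eIF4E3 and eIF4E5, no entry of the pooled list and no entry of any replicate list, background entries included, had its summit within 500 bp of a start site. Such an entry was found for 53.4% of all protein-coding genes in the pooled list and for 47.1%, 56.7% and 43.2% in replicates 1, 2 and 3. eIF3d2, eIF3f2 and eIF3g2 are second copies of subunits of factor 3, and eIF4E3 and eIF4E5 are cap-binding proteins used in spermatogenesis. The nearest thresholded summit to these 5 genes was 9083 bp away at eIF4E5 and 80220 bp away at eIF3g2. The exception was eIF4G2 (FBgn0260634, minus strand of 3R from 23808285 to 23819237), a scaffold of the cap-binding complex needed for male meiosis. Its peak had a pooled signal of 274 (rank 4396), and in replicates 1, 2 and 3 the signal was 91.1, 102 and 76.3 at ranks 5879, 4136 and 3602. All 3 ranks were within the strongest 7291. The summit, at 23819326 in an intron of CG34355, lay 89 bp upstream of eIF4G2 and equally 89 bp upstream of CG33111, so the peak cannot be given to either gene. Of the other paralogs, only eIF4E6 had any entry, in replicate 2 alone (signal 55.5, rank 8641).

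Among general factors, those without a thresholded peak mostly had a weaker entry. Of the 14 unbound general factors 9 had an entry in the pooled list (64.3%), and 7 of these had a q-value of 0.05 or less; among all 9703 unbound protein-coding genes 3202 (33.0%) had one. With bound genes included, 28 of 33 general factors had a pooled entry (53.4% of all genes), and 26 had one with a q-value of 0.05 or less (39.8% of all genes). The members just inside the thresholded list were eIF2Bdelta (signal 179) and eIF4A (228), and those just outside were eIF5 (165), eIF3j (149) and eIF3b (141), beside a lowest signal of 172 in that list. No pooled entry was found at eIF2Bepsilon, eIF3g1, eIF3i, eIF4B and eIF4G1. Of these, eIF4B, a cofactor of the helicase eIF4A, lay on 3L from 27842669 to 27858271 with the nearest thresholded summit 591028 bp away, and eIF4G1, the main scaffold of the cap-binding complex, lay on chromosome 4 and had an entry in replicate 2 only (rank 7387).

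**Figure D2:**
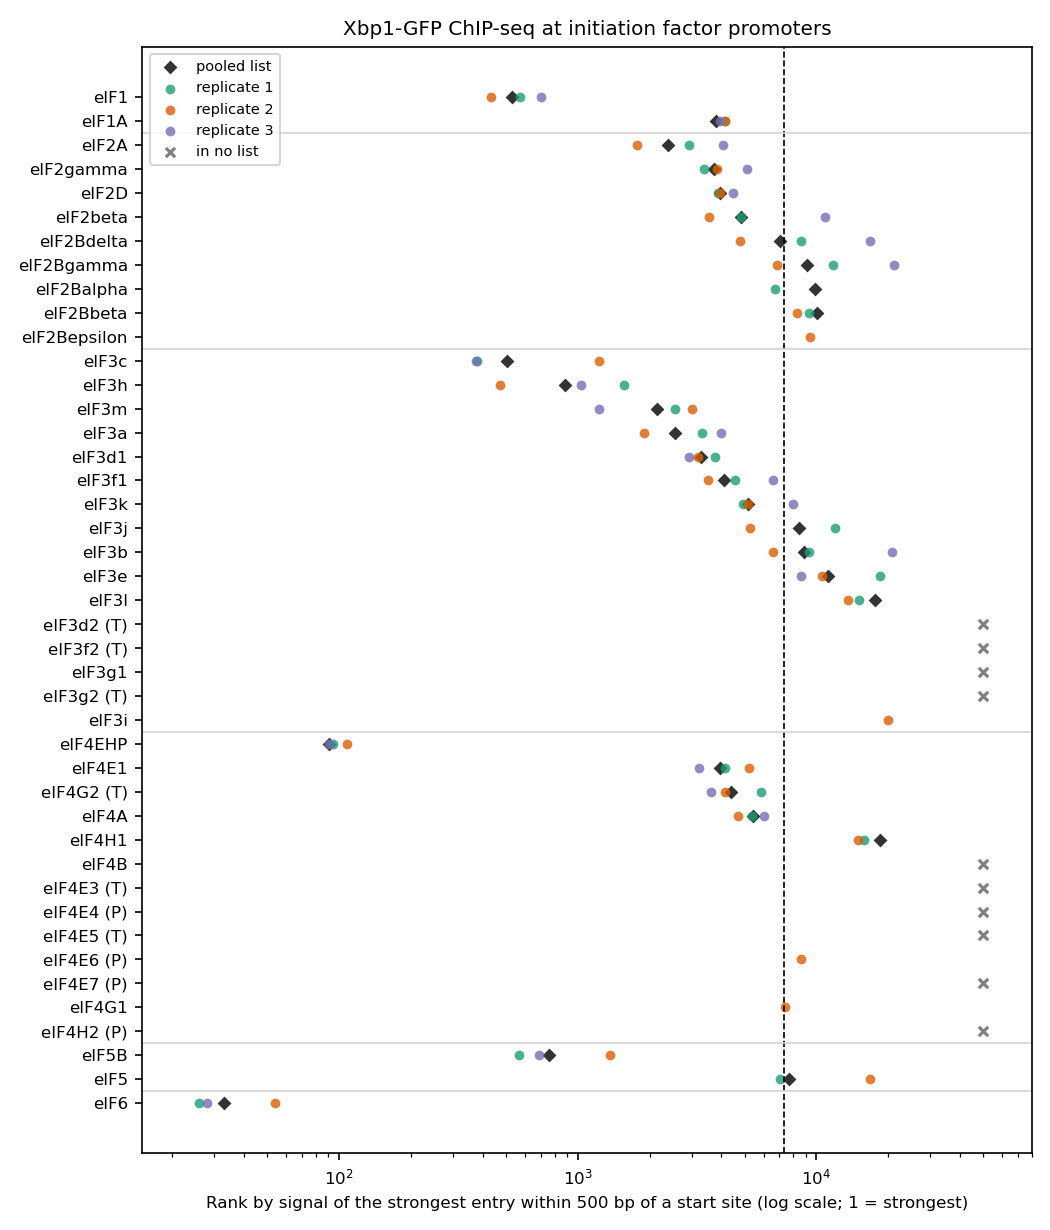
Rank by signal (log scale, 1 is strongest) of the strongest entry within 500 bp of a start site of each of the 43 genes, in the pooled list (black) and in replicates 1 to 3 (coloured), grouped by factor number; T marks testis-biased and P other paralogs, crosses mark genes with no entry in any list, and the dashed line is rank 7291. eIF6 and eIF4EHP lie far to the left in all lists, and 10 genes have no entry.

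The sequence at the summits of bound members held the DNA replication-related element (DRE) more often than an unfolded protein response (UPR) element. The promoter peaks of all bound genes had the same order, and the core of the UPR element was as frequent at member summits as the DRE. The DRE is a site of the factor DREF found in promoters of broadly used genes. The letters searched on both strands were TATCGATA for the DRE, TGACGTGG for the UPR element and ACGT for its core. The core is part of the UPR element, and the DRE contains neither. Only exact matches were counted, so variants of these letters are missed. Within 50 bp of the strongest summit, 5 of 20 bound members had a DRE (25.0%). The counts were 174 of the 3013 strongest promoter peaks of all bound genes (5.77%) and 18 of 72 for bound ribosomal protein genes (25.0%). Among the 5, the eIF1 summit was nearer to the ribosomal protein gene RpL28, so these groups are not independent. The eIF3a summit was nearer to CG1074, and that of eIF2gamma was equally near Su(var)3-9. These matches cannot be given to the members alone. The UPR element was found at none of the 20, nor in the promoter window of any of the 43 members, beside 22 of the 3013 peaks (0.730%) and 0.387% of all promoter windows. The core was found at 5 of 20 (25.0%), beside 20.4% of the 3013. The core also lies inside ACGTGG, a shorter form of the UPR element, which was found at none of the 20 summits and at 2.66% of the 3013. The Ohler 1 motif of core promoters (GGTCACACT) was likewise found at none, beside 2.19%. The cyclic AMP response element (TGACGTCA) was found at none, beside 0.266%, nor was the E-box CACGTG, beside 1.26%. For the E-box CAGCTG the share of the 3013 was 5.74%, and for the motif CTCTTTC it was 1.23%, again with none among the members. With only 20 windows and shares this low over all peaks, finding none of a motif is not read as a difference. Printed below, from the Release 6 genome in the direction of the named gene, are windows with a DRE and windows of members the results turn on; each runs up to 50 bp to either side of the summit, shortened where an annotated untranslated region begins. Capitals mark a DRE or an ACGT core. The windows lie at chr3L:3222973-3223073 (plus strand) for eIF1, chr3R:15263459-15263536 for eIF2gamma, chr3R:4433899-4433964 for eIF3a, chr3R:4714183-4714233 for eIF3f1, chr3R:24109218-24109318 for eIF4EHP and chr3R:23819276-23819376 for eIF4G2 (all minus strand).
eIF1: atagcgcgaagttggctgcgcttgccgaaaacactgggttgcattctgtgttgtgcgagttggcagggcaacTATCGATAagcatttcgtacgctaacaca
eIF2gamma: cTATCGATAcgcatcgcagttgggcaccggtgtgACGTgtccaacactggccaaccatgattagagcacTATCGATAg
eIF3a: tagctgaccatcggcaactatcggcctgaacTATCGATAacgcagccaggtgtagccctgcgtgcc
eIF3f1: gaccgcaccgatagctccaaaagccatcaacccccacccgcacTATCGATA
eIF4EHP: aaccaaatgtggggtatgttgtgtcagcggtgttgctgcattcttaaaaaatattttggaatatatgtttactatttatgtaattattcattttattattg
eIF4G2: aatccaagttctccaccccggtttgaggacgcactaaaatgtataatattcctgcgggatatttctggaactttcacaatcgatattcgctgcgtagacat

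The windows with a DRE were chosen for holding one within 50 bp of the summit, so its distance there is a description. Its centre was 25.5 bp from the summit at eIF1, 22.5 bp at eIF2gamma, 19.5 bp at eIF3a and 3.5 bp at eIF3f1, and at eIF2A, whose window is not shown because it lies in the 5' UTR, 27.5 bp. At eIF6 and eIF1A the nearest DRE lay farther away, at 89.5 and 102.5 bp, and eIF3c had one in its promoter window but none within 200 bp of its summit. eIF2gamma had 3 DRE matches within 200 bp of its summit and an ACGT core 14.5 bp from it. That core lay in TGACGTGT, which differs from the UPR element in its last letter alone and was not counted as one. The window of eIF4EHP, one of the strongest peaks among members, and that of eIF4G2 held no exact DRE match and no core. That of eIF4G2 held AATCGATA, which differs from TATCGATA in its first letter alone and was not counted. In promoter windows, from 250 bp upstream to 50 bp downstream of the start site of the annotation's canonical transcript, a DRE was found in 11 of 43 members (25.6%) and in 1247 of 13944 protein-coding genes (8.94%). Of the 11 members with one, 7 were bound (63.6%), and of the 32 without, 13 (40.6%); over all genes the shares were 50.9% and 28.4%. For the ACGT core, 12 of the 20 members with one in the promoter window were bound (60.0%) and 8 of the 23 without (34.8%), beside 32.0% and 28.9% over all genes. None of the 6 testis-biased paralogs had a DRE there. Summit windows of bound members had a median GC content of 44.6%, against 36.6% for the 3013 peaks, and its part in the motif counts was not tested. A match of letters is not a site of binding.

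**Figure D3:**
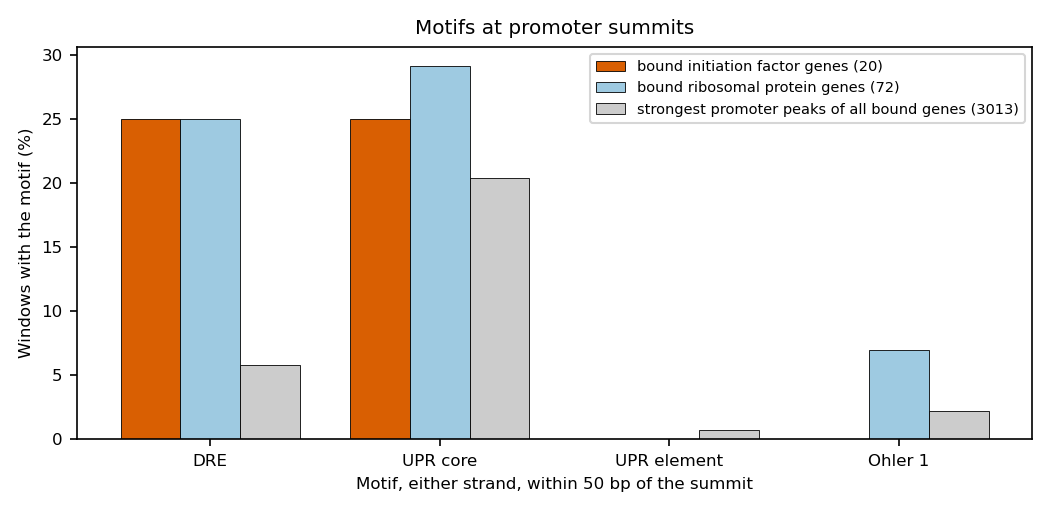
Percentage of windows within 50 bp of a promoter summit that hold each motif on either strand, for 20 bound initiation factor genes, 72 bound ribosomal protein genes and the 3013 strongest promoter peaks of all bound genes. The DRE stands at 25.0% in both translation groups and at 5.77% over all. The UPR element is at 0 in both groups and at 0.730% over all. The eIF1 summit lies nearer to the ribosomal protein gene RpL28, so the translation groups are not independent.

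The strongest member peaks lay at eIF6 and eIF4EHP, both genes outside the large factor 2 and factor 3 complexes. eIF6 (FBgn0034915, minus strand of 2R from 23849246 to 23850301) prevents ribosomal subunits from joining too early. Its peak had a pooled signal of 3356 at rank 33 of 7291, and the replicates gave signals of 1554, 920 and 908 at ranks 26, 54 and 28. It was among the strongest in every replicate. The summit, at 23850398, lay 97 bp upstream of eIF6 in a non-coding exon of asRNA:CR45928, and no other protein-coding gene started within 500 bp. eIF4EHP (FBgn0053100, minus strand of 3R from 24063077 to 24108960) is a cap-binding protein that represses translation of chosen mRNAs, such as that of caudal, in the early embryo. Its pooled signal was 2271 at rank 91, and in replicates 1, 2 and 3 it was 1010, 689 and 571 at ranks 94, 108 and 91. The 3 ranks were close to each other. The summit at 24109268 was 308 bp upstream of eIF4EHP but only 68 bp upstream of CG18428, the nearer gene.

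Both factor 1 genes were bound. eIF1 (FBgn0035423, plus strand of 3L from 3223341 to 3224650) had a pair of peaks. The stronger, with a pooled signal of 1047 (rank 532), had replicate signals of 452, 370 and 223 at ranks 574, 435 and 702. It lay 318 bp upstream of eIF1 and 63 bp upstream of the ribosomal protein gene RpL28. The weaker, with a signal of 298, lay 106 bp upstream of eIF1, nearer to it than to RpL28. eIF1A (FBgn0026250, plus strand of 3R from 18274665 to 18283005) had a signal of 308 (rank 3798), with 125, 102 and 70.2 in the replicates at ranks 4123, 4148 and 3952. Its summit lay 96 bp upstream of it and 123 bp upstream of Vps39, a gene of endosome tethering.

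In factor 2, 5 of 9 genes were bound (55.6%), beside 30.4% of all genes. These were all 4 members outside the exchange factor eIF2B and 1 of its 5 subunits, a split that was not planned. The subunits eIF2Bbeta and eIF2Bepsilon lie on the X chromosome, and its part in the split was not tested. Counting every pooled entry with a q-value of 0.05 or less, 4 of the 5 eIF2B subunits (80.0%) and again all 4 of the others had one, beside 39.8% of all genes. eIF2A (FBgn0037135, plus strand of 3L from 21824740 to 21827856), a factor named as an alternative to factor 2, was highest with a signal of 446 (rank 2377) and replicate signals of 167, 179 and 68.7 at ranks 2924, 1764 and 4053. Its summit lay in its own 5' UTR. eIF2gamma (FBgn0263740, minus strand of 3R from 15257844 to 15263458), the subunit that binds GTP and the tRNA, followed with 314 (rank 3719) and with 148, 109 and 55.1 at ranks 3373, 3813 and 5131. Its start site is that of Su(var)3-9, a histone methyltransferase gene, and its summit was 28 bp from both. eIF2D (FBgn0041588, minus strand of 3R from 29149896 to 29151794), another tRNA-delivering factor, had 300 (rank 3939) and 132, 106 and 62.7 at ranks 3852, 3941 and 4476. All 3 of these genes were among the strongest 7291 peaks in each replicate. eIF2beta, with a pooled signal of 253, was not: its rank was 4840 and 3544 in replicates 1 and 2 and 10824 in replicate 3 (q-value 0.255).

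The bound eIF2B subunit, eIF2Bdelta, rested on replicate 2. Its ranks were 8605, 4784 and 16726 in replicates 1, 2 and 3, so that it was within the strongest 7291 in replicate 2 only. The unbound subunits were eIF2Balpha, eIF2Bbeta, eIF2Bgamma and eIF2Bepsilon, the catalytic subunit. Of these, eIF2Balpha reached the strongest 7291 in replicate 1 (rank 6692) and eIF2Bgamma in replicate 2 (rank 6841). In the equally long replicate lists 1, 2 and 0 of the 5 eIF2B subunits were bound, against 4, 4 and 3 of the 4 remaining members. For factor 2 as a whole the counts were 5, 6 and 3 of 9.

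Factor 3 was bound at 7 of 16 genes (43.8%), or at 7 of 13 without the testis-biased copies (53.8%), beside 30.4% of all genes. eIF3c (FBgn0034258, plus strand of 2R from 17665678 to 17669275) was highest, with a signal of 1072 (rank 507) and replicate signals of 558, 221 and 310 at ranks 377, 1224 and 375. It ranked weaker in replicate 2 than in the other replicates, and its summit lay 16 bp upstream of the start. eIF3h (FBgn0022023, minus strand of 2L from 5051193 to 5053094) followed with 816 (rank 883) and with 262, 359 and 181 at ranks 1556, 471 and 1036. That summit lay in an intron, 292 bp downstream of a start site inside the gene, at 5052780, and 355 bp upstream of senju. A weaker peak (371) lay 11 bp downstream of the same start site and 74 bp upstream of senju. eIF3m (FBgn0033902, minus strand of 2R from 14163066 to 14164825) had 475 (rank 2146) and 186, 129 and 164 at ranks 2546, 3020 and 1231. Its summit was 107 bp upstream of it and 119 bp upstream of CG8323.

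The remaining bound subunits were eIF3a (422), eIF3d1 (347), eIF3f1 (289) and eIF3k (239). Of the 7, eIF3k alone fell outside the strongest 7291 in a replicate, at rank 8005 in replicate 3. The eIF3a summit was 54 bp from eIF3a and 16 bp from CG1074. A grouping by the 8 subunits that in mammals form the octamer core of the complex was chosen after seeing the data. Of these 8, 6 were bound (all but eIF3e and eIF3l), against 1 of the other 5 general subunits, eIF3d1. The share of all genes was 30.4%. With pooled entries of q-value 0.05 or less the counts were closer, 7 of 8 and 3 of 5, beside 39.8% of all genes. In the thresholded list the unbound ones of these 5 were eIF3b, eIF3g1, eIF3i and eIF3j. The replicate lists gave 6, 6 and 5 of 8 for the core and 1, 3 and 1 of 5 for the others, because eIF3b (rank 6600) and eIF3j (rank 5270) were within the strongest 7291 in replicate 2. eIF3g1 had no entry in any list, and eIF3i had one in replicate 2 only (rank 20019).

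Factor 4 was bound at 4 of 13 genes (30.8%), about the share of all genes, and at 3 of 6 when the listed paralogs are set aside. These 6 include eIF4EHP, a member of the eIF4E family. For factor 4 as a whole the same count of 4 was found in each replicate list. Besides eIF4EHP and eIF4G2 the bound genes were eIF4E1 and eIF4A. eIF4E1 (FBgn0015218, minus strand of 3L from 9399618 to 9402460), the main cap-binding protein, had a signal of 299 (rank 3949) and replicate signals of 125, 85.9 and 83.7 at ranks 4139, 5235 and 3223, with its summit 27 bp upstream of the start. eIF4A (FBgn0001942, plus strand of 2L from 5981764 to 5985909), the RNA helicase, had 228 (rank 5428) and ranks of 5388, 4699 and 6003. Its summit lay in its own 5' UTR, 111 bp upstream of a start site inside the gene, at 5982594. With the outermost start site only, eIF4A was not bound and factor 4 had 3 bound genes. Within the eIF4E family 2 of 7 genes were bound (28.6%, about the 30.4% of all genes), eIF4E1 and eIF4EHP. eIF4H1, a cofactor of eIF4A, had a pooled signal of 67.

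Of the factor 5 genes, 1 was bound. eIF5B (FBgn0026259, minus strand of 3L from 3428658 to 3460977), the GTPase of subunit joining, had a signal of 886 (rank 759) and replicate signals of 455, 207 and 225 at ranks 567, 1370 and 687. Its summit lay in its own 5' UTR, and no other protein-coding gene started within 500 bp. eIF5, which triggers GTP hydrolysis by factor 2, was unbound. It had ranks of 7028 in replicate 1 and 16754 in replicate 2 and no entry in replicate 3.

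Most bound members were found in all replicates, and most of their peaks were of middling strength. Of the 20, 17 were within the strongest 7291 peaks of all 3 replicates (85.0%), with 3337 of 4242 for all bound genes (78.7%). The exceptions were eIF2beta, eIF2Bdelta and eIF3k. The median signal of the 20 strongest member peaks was 331 in the thresholded list, against 403 over all bound genes, a ratio of 0.820. Taken list by list over the replicates, that ratio averaged 0.823 ± 0.0565 (SD, n = 3). With a promoter distance of 1000 bp the ratio was 1.04, and among the 3645 strongest peaks 1.42, so no direction is given. Of the 20, 9 lay above the median of all bound genes and 4 (eIF6, eIF4EHP, eIF3c and eIF1) were in the strongest 10% of the list. At eIF4EHP and eIF1 that peak was nearer to another gene, CG18428 and RpL28. Medians were 422 in factor 3, 300 in factor 2 and 286 in factor 4, with ratios in the replicates of 1.01 ± 0.211, 0.731 ± 0.104 and 0.723 ± 0.0798 (SD, n = 3 each).

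Summits of bound members lay just upstream of start sites. The median position was 73 bp upstream, against 115 bp upstream for all bound genes. Of the 20, 18 lay upstream of the nearest annotated start of the gene (90.0%, with 89.1% of all bound genes) and 16 within 150 bp of it (80.0%, with 56.9%). In the lists of replicates 1, 2 and 3 the share within 150 bp was 76.2%, 65.2% and 76.5%, with 55.4%, 61.8% and 52.5% of all bound genes, so the gap was small in replicate 2. The upstream share was 81.0%, 78.3% and 94.1% there, with 90.2%, 85.1% and 89.6%, below that of all bound genes in replicates 1 and 2. By annotation 13 lay between genes, 4 in a 5' UTR, 2 in an intron and 1 in a non-coding exon, and none in coding sequence. The summits of eIF2A, eIF4A and eIF5B lay in their own 5' UTRs and count as upstream only of a start site inside the gene. For 9 of the 20 another protein-coding gene also started within 500 bp of the summit. At eIF1, eIF3a and eIF4EHP that gene was the nearer one. With each peak given to its nearest gene alone, a setting added once the data had been seen, 18 of 43 members were bound (41.9%), with 22.8% of all genes.

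**Figure D4:**
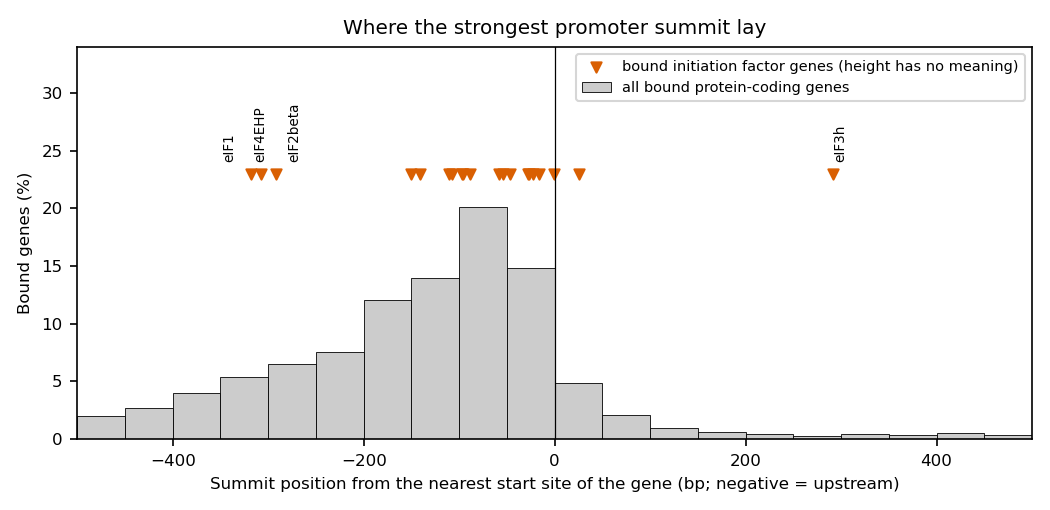
Position of the strongest promoter summit from the nearest start site of its gene, in bp with negative values upstream; grey bars give the percentage of all 4242 bound genes in bins of 50 bp and triangles mark the 20 bound initiation factor genes. Most members lie within 150 bp of the start, and eIF1, eIF4EHP, eIF2beta and eIF3h lie farther away.

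Binding was also counted by gene neighbourhood and by chromosome. A protein-coding neighbour started within 500 bp of a start site of 19 of 43 members (44.2%), against 30.9% of all genes. Members with such a neighbour were bound in 10 of 19 cases (52.6%) and those without in 10 of 24 (41.7%), whereas over all genes the shares were 55.2% and 19.3%. Among general factors they were 9 of 15 and 10 of 18. None of the 6 members on the X chromosome was bound (eIF2Bbeta, eIF2Bepsilon, eIF3g1, eIF4E7, eIF4H1 and eIF5, exact upper limit 45.9%), although 657 of 2196 genes on the X were (29.9%). Of the 6, 3 had a weaker pooled entry, and 57.7% of all genes on the X had a pooled entry. The X count was 1 (eIF5), 0 and 0 of 6 in the lists of replicates 1, 2 and 3. On 3R 8 of 13 members were bound (32.6% of all genes there), on 3L 5 of 11 (31.1%), on 2R 5 of 9 (28.7%) and on 2L 2 of 3 (29.2%). The 2R count was 4, 8 and 3 of 9 in the lists of replicates 1, 2 and 3. Whether the chromosome or the genes on it account for this was not tested.

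Other factors of translation, taken from a list of 23 names of which 22 matched a gene, were bound in 15 of 22 cases, and in 14, 15 and 13 cases in the replicate lists. The highest were eEF1gamma, a subunit of the elongation factor that loads tRNAs (1056; ranks 537, 339 and 1272 in replicates 1, 2 and 3), eRF1, the release factor that reads stop codons (848; ranks 957, 851 and 788), and eEF1alpha1, the tRNA carrier of elongation (786; ranks 930, 734 and 1238). The pAbp peak, at the poly(A)-binding protein gene, had the same rounded signal of 786, but lay 497 bp downstream of its start. Thor, the inhibitor of eIF4E, had 256. Unbound were 4E-T, DENR, Paip2, S6k, cup, eEF1alpha2 and eEF1delta. The median signal of the 15 was 506, against 403 over all bound genes.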

How the data were processed

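Peaks of Xbp1-GFP ChIP-seq from 3 biological replicates were taken as deposited in the dm6 build. Per the deposited text lists, each replicate list came from that replicate's alignment and the pooled list from all 3, each with 1 further file that the control-normalized signal tracks also used, and the thresholded list came from those 4 lists. Each deposited peak carried a signal (authors' peak caller, scale not stated, used only within a list) and a −log10 of the q-value. The sources used here name neither aligner nor caller. The dm3 lists were not used here. Read totals and depth are unknown.

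Genes and start sites came from Ensembl BDGP6.54 (release 115) and sequence from the Release 6 genome, after checking that peaks and genes ended within their chromosomes. Replicate lists held 21686, 30000 and 23357 entries. Each was limited to its 7291 strongest. The 7291 thresholded peaks were the strongest of the 27099 pooled entries. Ranks count from 1 at the highest signal, and positions count from 1. Of 9 motifs searched, 8 were planned and ACGTGG was added after seeing the data, and 13944 genes had a promoter window. Members and lists were chosen with earlier results of these data known, so no test was made over members. Every member is named; replicate values are given in full for the 3 strongest bound members of factors 2, 3 and 4, every bound member of factors 1, 5 and 6, and bound testis-biased paralogs. Alternatives changed the promoter distance, peak list, start sites, overlap rule and replicates. The promoter rule was tested on simulated data. Tools were Matplotlib 3.10.9, pandas 2.3.3, SciPy 1.17.1, NumPy 2.4.6 and Python 3.11.15.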

Additional observations from a re-analysis of the deposited data

How the results depend on the processing

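Of 94 alternative values over 11 results, 73 stayed within 1.5 times the count or within 1 SD of the replicates, and 21 did not; the cause of those was not tested, except that a shorter or longer list holds fewer or more genes. The share of bound members was 23.3% among the 3645 strongest peaks (18.9% of all genes), 62.8% with pooled entries of q-value 0.05 or less (39.8% of all genes), 37.2% with thresholded peaks that overlapped one of the 7291 strongest peaks of all 3 replicates (24.0%; by summits near the start site in place of overlap, 17 bound members were found in all 3), and 37.2 to 44.2% when 1 replicate was left out. It was above that of all genes under each of these. The ratio of median signal was 1.04 at 1000 bp, 1.42 among the 3645 strongest peaks, 0.987 with pooled entries, 0.892 with the outermost start site, 0.880 with peaks strong in all 3 replicates, and 0.758 to 0.936 without 1 replicate. Among the 3645 strongest peaks, 10 general factors, 1 gene of factor 2, 1 of factor 4 and 0 testis-biased paralogs were bound. Factor 2 had 8 bound genes with pooled entries, 3 with peaks strong in all 3 replicates, and 3 to 4 without 1 replicate: 3 without replicate 1, and 3 without replicate 2. Of the other paralogs, eIF4E6 alone had an entry, in replicate 2 with a q-value of 0.05 or less. No paired analysis was possible because there was 1 group. Unknown depth limits any statement that a promoter had no peak.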
